A study of Mus musculus with 6 samples.

Results

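The chemokine ligand genes described here are Ccl1, Ccl3, Ccl4, Ccl5, Ccl17, Ccl20, Ccl22, Xcl1 and Cxcl10. They were taken by name and make up 9 of the 22400 genes that had a count in at least 1 sample. The samples were day 2 Th9 cultures, in which naive CD4+ T cells from spleen and lymph nodes of C57BL/6 mice aged 8 to 10 weeks were stimulated for 48 h through CD3 (antibody at 2 µg/ml) and CD28 (antibody at 1 µg/ml). IL-4 at 20 ng/ml and TGF-β at 2.5 ng/ml were present, and IFN-γ was blocked with antibody at 10 µg/ml. Both genotypes carried floxed Cul5, which encodes a cullin scaffold of E3 ubiquitin ligases. The WT group consisted of 3 samples from Cul5fl/fl littermates without Cre, and the Cul5 cKO group of 3 samples from Cul5fl/fl mice with CD4-Cre. This Cre acts in the thymus before CD4 and CD8 T cells separate, so the deletion preceded the culture. The labels do not say how many mice gave each sample or whether samples came from separate mice, so the p-values below measure the spread between these samples, which may be technical.

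Chemokines are small secreted proteins that direct leukocyte migration through G protein-coupled receptors. CC, CXC and C chemokines are told apart by the cysteines near the N terminus. Ccl1 is the ligand of Ccr8, a receptor of Th2 cells, Th9 cells and tissue Treg cells. Ccl3, Ccl4 and Ccl5 attract T cells and monocytes, and Ccl3 and Ccl5 bind Ccr1. Ccl17 and Ccl22 attract Ccr4-bearing Th2 and Treg cells and are best known as products of dendritic cells. Ccl20 is the ligand of Ccr6 on Th17 and B cells, Xcl1 attracts cross-presenting dendritic cells through Xcr1, and Cxcl10 is an interferon-induced ligand of Cxcr3. Activated T cells are a known source of Ccl1, Ccl3, Ccl4, Ccl5 and Xcl1.

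Poly-A RNA was sequenced in single reads of 50 bases, and the files gave between 3944803 estimated counts (WT replicate 3) and 23454552 (Cul5 cKO replicate 3). Levels are given as CPM, counts scaled to library size after TMM normalization, and differences as the log2 fold change of Cul5 cKO over WT. A floor of 3 counts equalled 0.759 CPM in WT replicate 3 and 0.128 to 0.133 CPM in the other samples, and this floor and the counting intervals below cover counting error only. Cul5 itself was at 64.4, 69.3 and 65.0 CPM in WT replicates 1, 2 and 3 and at 10.6, 14.2 and 13.1 CPM in Cul5 cKO replicates 1, 2 and 3, so the genotype labels held in every sample. The T cell markers summed to between 1465 and 1755 CPM in each sample, with all 7 detected. Replicate 1 of both genotypes stood apart from the other 4 samples in the genes described next, and values from replicates 2 and 3 alone are therefore given beside those from all 6 samples.

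In none of the chemokine ligand genes that could be tested did the difference between genotypes exceed the spread between replicates. With p-values from the quasi-likelihood test of edgeR, adjusted after Benjamini and Hochberg over all 12925 genes tested, 0 of the 7 ligand genes that passed the expression filter were called at an adjusted p under 0.05, while 1.03% of all genes tested were called, 0.611% with a higher and 0.418% with a lower level in Cul5 cKO cells. Before adjustment the count at p under 0.05 was also 0 with edgeR, and it was 1 (Ccl17) with DESeq2, which called 0 after adjustment. Over all genes these shares were 21.3% with edgeR and 18.1% with DESeq2. Ccl5 and Cxcl10 did not pass the filter. In 0 of the 9 genes did the 3 Cul5 cKO samples separate from the 3 WT samples, against 27.5% of all genes tested. The log2 fold change was above 0 in 6 of the 7 tested genes, with a median of 1.07, against -0.007 over all genes tested. Every one of these differences had 95% limits that included 0, and those of Ccl1, Ccl4 and Xcl1 were wide enough to include a 4-fold difference in either direction. In the plot of all 9 genes, the spread of Ccl1, Ccl3, Ccl4 and Xcl1 within each genotype came largely from replicate 1.

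**Figure D1:**
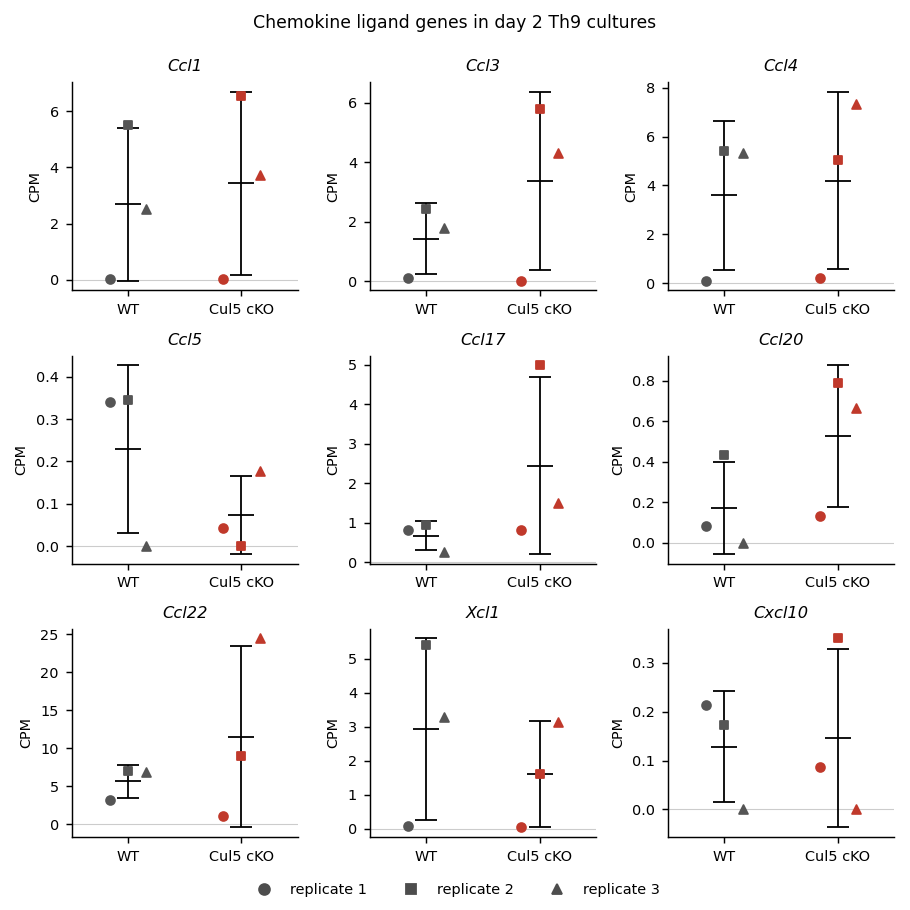
Level of each chemokine ligand gene in CPM (vertical axes, each with its own scale) in the 3 WT (grey) and 3 Cul5 cKO (red) samples, with symbols for the replicate number and bars for mean ± SD. Replicate 1 of both genotypes sat near 0 for Ccl1, Ccl3, Ccl4 and Xcl1, and the genotypes overlapped in all 9 genes.

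Ccl1, Ccl3, Ccl4 and Xcl1, which make up 4 of the 5 ligand genes named above as products of activated T cells, were at or near the floor in replicate 1 of both genotypes and above it in the other 4 samples. Ccl5, the other gene of that group, was at or below 8 counts throughout and did not show this pattern. Ccl1 (ENSMUSG00000020702) spans 82176657 to 82305690 on chromosome 11 (GRCm38), and a short transcript from 82176657 to 82179812 held 94.8% of its counts. Ccl3 (ENSMUSG00000000982, 83647844 to 83649355) and Ccl4 (ENSMUSG00000018930, 83662584 to 83664683) are neighbours on the same chromosome, with starts 13229 bases apart and opposite strands. Xcl1 (ENSMUSG00000026573) lies on chromosome 1 from 164931644 to 164935527. The 250 bases before the RefSeq start (GRCm38.p6) of 3 of these genes are shown because the genes varied together across samples. Capitals mark GGAAAA, the core bound by NFAT factors, and GTGGGNG, a core bound by EGR factors, on either strand, where GGAAAA reads TTTTCC and GTGGGNG reads CNCCCAC on the opposite strand.
Ccl1 (chr11:82179813-82180062, minus strand): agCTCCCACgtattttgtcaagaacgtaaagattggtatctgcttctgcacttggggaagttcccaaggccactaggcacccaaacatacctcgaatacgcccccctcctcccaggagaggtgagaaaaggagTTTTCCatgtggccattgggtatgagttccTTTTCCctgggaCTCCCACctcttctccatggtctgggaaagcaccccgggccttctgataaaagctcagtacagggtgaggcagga
Ccl3 (chr11:83649379-83649628, minus strand): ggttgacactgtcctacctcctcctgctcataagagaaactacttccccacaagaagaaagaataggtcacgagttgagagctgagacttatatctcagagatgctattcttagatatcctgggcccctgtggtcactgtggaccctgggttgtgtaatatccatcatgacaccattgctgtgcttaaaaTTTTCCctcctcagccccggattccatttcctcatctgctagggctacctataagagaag
Xcl1 (chr1:164935523-164935772, minus strand): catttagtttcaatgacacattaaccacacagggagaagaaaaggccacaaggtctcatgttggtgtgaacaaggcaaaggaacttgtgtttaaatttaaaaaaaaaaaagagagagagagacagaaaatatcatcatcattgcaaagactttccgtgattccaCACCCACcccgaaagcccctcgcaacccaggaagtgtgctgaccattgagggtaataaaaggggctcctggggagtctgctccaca
Ccl1 held both motifs, Ccl3 held GGAAAA 60 bases before the start, and Xcl1 held GTGGGNG 86 bases before it. Among all 32851 promoter windows of this length, 20.4% held GGAAAA and 28.1% held GTGGGNG. Outside this group, Ccl20 held both motifs and Ccl22 held GTGGGNG, but neither gene is a clear contrast. Both replicate 1 samples of Ccl22 were above the floor yet below the other 4 samples. Those of Ccl20 were at or under the floor, as was its value in WT replicate 3, the shallowest library. Both motifs are common among all windows, were chosen after the data were seen, and a match is a description of the letters only.

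Ccl1 was at 0.0427, 5.49 and 2.53 CPM in WT replicates 1, 2 and 3. In Cul5 cKO replicates 1, 2 and 3 it was at 0.0434, 6.53 and 3.73 CPM. Each replicate 1 value rested on 1 count, and replicate 2 was the highest sample in both genotypes. The WT mean was 2.69 ± 2.73 CPM and the Cul5 cKO mean 3.44 ± 3.25 CPM (SD, n = 3 each). The difference on the log2 scale was 0.34 (SE 1.38, adjusted p = 0.918, edgeR). The exact two-sided permutation test of the 6 values gave p = 0.7, where 0.1 is the smallest that 3 samples against 3 allow. Without replicate 1 the log2 fold change was 0.23 with 95% limits of -0.78 and 1.23, and the genotypes overlapped.

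Ccl3, which encodes MIP-1α, was at 0.0854, 2.42 and 1.77 CPM in WT replicates 1, 2 and 3. In Cul5 cKO replicates 1, 2 and 3 it was at 0, 5.78 and 4.31 CPM, where the exact Poisson 95% interval of the 0 counts reached 0.160 CPM. Cul5 cKO replicates 2 and 3 thus lay above every WT sample, and both replicate 1 samples were under the floor. The log2 fold change was 1.31 (SE 1.39 and adjusted p = 0.626, edgeR). Without replicate 1 it was 1.19 (SE 0.30, 95% limits 0.47 and 1.92, adjusted p = 0.0587, edgeR), which missed the threshold and was the lowest adjusted p reached by any chemokine ligand gene under any setting tried. The 7 counts in WT replicate 3 gave an exact Poisson 95% interval of 0.712 to 3.65 CPM, which includes the value of WT replicate 2.

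Ccl4, which encodes MIP-1β, was at 0.0854, 5.41 and 5.31 CPM in WT replicates 1, 2 and 3. In Cul5 cKO replicates 1, 2 and 3 it was at 0.217, 5.04 and 7.34 CPM. Replicates 2 and 3 of the genotypes interleaved. The log2 fold change was 0.32 (SE 1.27 and adjusted p = 0.915, edgeR) over all samples. It was 0.21 in replicates 2 and 3 alone, with 95% limits of -0.41 and 0.82, the narrowest among the tested ligand genes.

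Xcl1, which encodes lymphotactin, was the only tested ligand gene with a log2 fold change below 0. It was at 0.0854, 5.41 and 3.29 CPM in WT replicates 1, 2 and 3 and at 0.0434, 1.62 and 3.16 CPM in Cul5 cKO replicates 1, 2 and 3. In WT replicate 3 it rested on 13 counts, with an exact Poisson 95% interval of 1.75 to 5.63 CPM that includes the value of Cul5 cKO replicate 3. The log2 fold change was -0.84 (SE 1.29 and adjusted p = 0.745, edgeR), and -0.93 in replicates 2 and 3 alone (95% limits -1.94 and 0.07, adjusted p = 0.184, edgeR). Without WT replicate 2 the sign turned, to 0.43.

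The shortfall in replicate 1 was shared with few other genes. Both replicate 1 samples lay below the other 4 samples in 12.2% of all genes tested, and at least 4-fold below the lowest of them in 12 genes, or 0.0928%. With replicate 1 values under the floor raised to it, 10 genes (0.0774%) remained, and the eosinophil granule gene Prg2 and the pseudogene Gm8430 dropped out. Ccl1, Ccl3, Ccl4 and Xcl1 were 4 of these 10. The others were Il2 and the immediate-early genes Egr1, Egr3, Egr4, Nr4a1 and Npas4, all named after their values were seen. No gene was at least 4-fold above in both replicate 1 samples, although 14.6% of genes lay above. Egr1, an early target of T cell receptor signalling, was at 3.59, 148 and 105 CPM in WT replicates 1, 2 and 3 and at 4.13, 152 and 140 CPM in Cul5 cKO replicates 1, 2 and 3. Il2 was at 0.171, 4.54 and 3.54 CPM in WT and at 0.0869, 8.59 and 6.76 CPM in Cul5 cKO replicates in the same order. The cause of this difference between replicates was not tested, and in bulk RNA fewer cells of a type and less RNA per cell cannot be told apart.

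**Figure D2:**
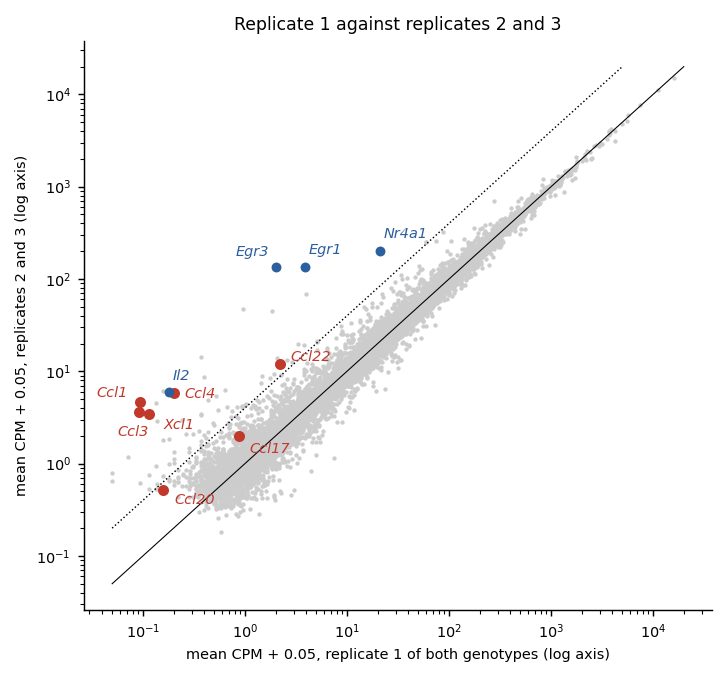
Mean CPM + 0.05 in replicate 1 of both genotypes (horizontal, log axis) against replicates 2 and 3 (vertical, log axis) for the genes tested, with equality as the solid line and 4-fold as the dotted line. Ccl1, Ccl3, Ccl4 and Xcl1 (red) lay far above the dotted line beside Il2, Egr1, Egr3 and Nr4a1 (blue). Ccl22 lay above the dotted line by less, and Ccl17 and Ccl20 lay between the solid and the dotted line.

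The pattern over the 6 samples was also compared gene by gene, as the root mean square difference of log2 CPM after centring each gene on its mean. This measure was taken for the 3 tested ligand genes with the widest range, Ccl3 (5.86 on the log2 scale), Ccl1 (5.53) and Ccl4 (5.32). Among 12924 other genes the nearest to Ccl3 was Il2, at 0.17, followed by Ccl1 at 0.51 and Egr1 at 0.57. For Ccl1 the nearest were Egr1 at 0.28, Il2 at 0.39 and Ccl3 at 0.51, and for Ccl4 they were Egr1 at 0.38, Il2 at 0.55 and Ccl1 at 0.57. Il2 and Egr1 were thus among the 3 nearest genes in all 3 cases. These values describe 6 samples that share the step between replicate 1 and the rest. Of the 23 tested genes with a start within 250 kb of that of a ligand gene, the 9 ligand genes aside, 0 were called in either direction by edgeR or by DESeq2 and 4 had an unadjusted p under 0.05 with edgeR, against 21.3% of all genes. In 3 of the 23 both replicate 1 samples lay below the others.

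Ccl17 (ENSMUSG00000031780, chromosome 8, 94810453 to 94812036) and Ccl22 (ENSMUSG00000031779, 94745590 to 94751699) are the Ccr4 ligands and start 64863 bases apart, with Cx3cl1 between them. Both had their highest value in a Cul5 cKO sample, but in different samples. The Ccl17 window before the RefSeq start is shown because it was the only ligand promoter of the 7 in the table with STAT motifs. Capitals mark the STAT6 motif, TTC and GAA with 4 bases between them, 154 bases before the start, and TTCNNNGAA, the STAT motif with 3, 99 bases before it.
Ccl17 (chr8:94810203-94810452, plus strand): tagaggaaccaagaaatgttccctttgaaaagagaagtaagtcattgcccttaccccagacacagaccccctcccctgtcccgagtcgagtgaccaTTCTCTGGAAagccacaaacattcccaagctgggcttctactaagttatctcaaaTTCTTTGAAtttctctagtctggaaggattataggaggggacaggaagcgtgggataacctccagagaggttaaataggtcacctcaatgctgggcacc
These motifs occur in 5.85% and 7.02% of all windows.

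Ccl17 was at 0.811, 0.952 and 0.253 CPM in WT replicates 1, 2 and 3. It was at 0.825, 4.996 and 1.51 CPM in Cul5 cKO replicates 1, 2 and 3. The replicate 1 samples lay above WT replicate 3 here and below the remaining samples, with 19 counts in each genotype. WT replicate 3 rested on 1 count and was under the floor. Its exact Poisson 95% interval of 0.00641 to 1.41 CPM includes the values of both replicate 1 samples and of WT replicate 2, so its place below them is uncertain. The WT mean was 0.672 ± 0.370 CPM and the Cul5 cKO mean 2.44 ± 2.24 CPM (SD, n = 3 each). The log2 fold change of 1.65 was the largest among the tested ligand genes (SE 0.716, 95% limits -0.03 and 3.32, adjusted p = 0.240, edgeR), and the exact permutation test gave p = 0.2. It rested mainly on Cul5 cKO replicate 2, whose 114 counts gave an exact Poisson 95% interval of 4.12 to 6.00 CPM. Without that sample the log2 fold change was 0.61 (adjusted p = 0.593, edgeR).

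Cul5 cKO replicate 2 was also the sample with the most RNA of myeloid genes. The 12 markers of myeloid and dendritic cells had summed levels of 7.64, 12.5 and 11.4 CPM in WT replicates 1, 2 and 3, against 7.38, 23.4 and 8.45 CPM in Cul5 cKO replicates, with 5 to 10 of the 12 detected per sample. Lyz2, the lysozyme of macrophages and neutrophils, was at 2.80 CPM in Cul5 cKO replicate 2 and at most at 0.260 CPM elsewhere. Of the 10 markers with a count, 8 were highest in this sample. The exceptions were Itgam, at 2.5 CPM here against 5.93 and 4.81 CPM in WT replicates 2 and 3, and Zbtb46, highest in Cul5 cKO replicate 3 at 1.73 CPM. Among the 8 the lead was small for Cd68 (3.42 against 3.29 CPM in WT replicate 3) and Itgax (1.80 against 1.35 CPM in Cul5 cKO replicate 1). Clec9a rested on 2 counts in Cul5 cKO replicate 2. Csf1r, the receptor of macrophage colony-stimulating factor, was at 2.63 CPM in Cul5 cKO replicate 2 and at most at 0.173 CPM elsewhere. The myeloid and platelet chemokine genes Ccl6 and Pf4, named after their values were seen, were at 1.18 and 3.24 CPM there and at most at 0.133 and 0.0889 CPM in the other samples. The complement genes C1qa and C1qb were at 0 in every sample, and the dendritic cell gene Clec9a did not exceed 0.0876 CPM. The part of these genes' source in the Ccl17 level was not tested.

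Ccl22 had the most counts of the ligand genes, from 25 to 551 per sample. It was at 3.20, 6.97 and 6.83 CPM in WT replicates 1, 2 and 3 and at 1.09, 8.94 and 24.5 CPM in Cul5 cKO replicates 1, 2 and 3. Both replicate 1 samples were below the other 4, by 2.13-fold between the nearest of them. The log2 fold change was 1.07 (SE 0.902 and adjusted p = 0.533, edgeR). The means were 5.67 ± 2.14 CPM for WT and 11.5 ± 11.9 CPM for Cul5 cKO cells (SD, n = 3 each). The excess lay in Cul5 cKO replicate 3, and without it the log2 fold change was -0.14 (adjusted p = 0.965, edgeR).

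The same sample had the highest level of B cell genes. Pax5, which fixes B cell identity, was at 8.63 CPM in Cul5 cKO replicate 3 and at 0.0869 to 1.54 CPM in the others. Ms4a1, which encodes CD20, was at 4.18 CPM in that sample and at most at 0.562 CPM elsewhere. The 7 B cell markers had summed levels of 113, 82.6 and 83.5 CPM in WT, against 42.2, 35.8 and 125 CPM in Cul5 cKO replicates 1, 2 and 3, with 6 or 7 detected per sample. This sum was carried by Ighm, the heavy chain of IgM, which was at 73.2 CPM in Cul5 cKO replicate 3 and at 93.6 CPM in WT replicate 1. Fcer2a, the low-affinity IgE receptor of B cells and a target of IL-4, was at 26.6 CPM in Cul5 cKO replicate 3 and at most at 4.11 CPM elsewhere. The part of B cells in the Ccl22 level was not tested.

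**Figure D3:**
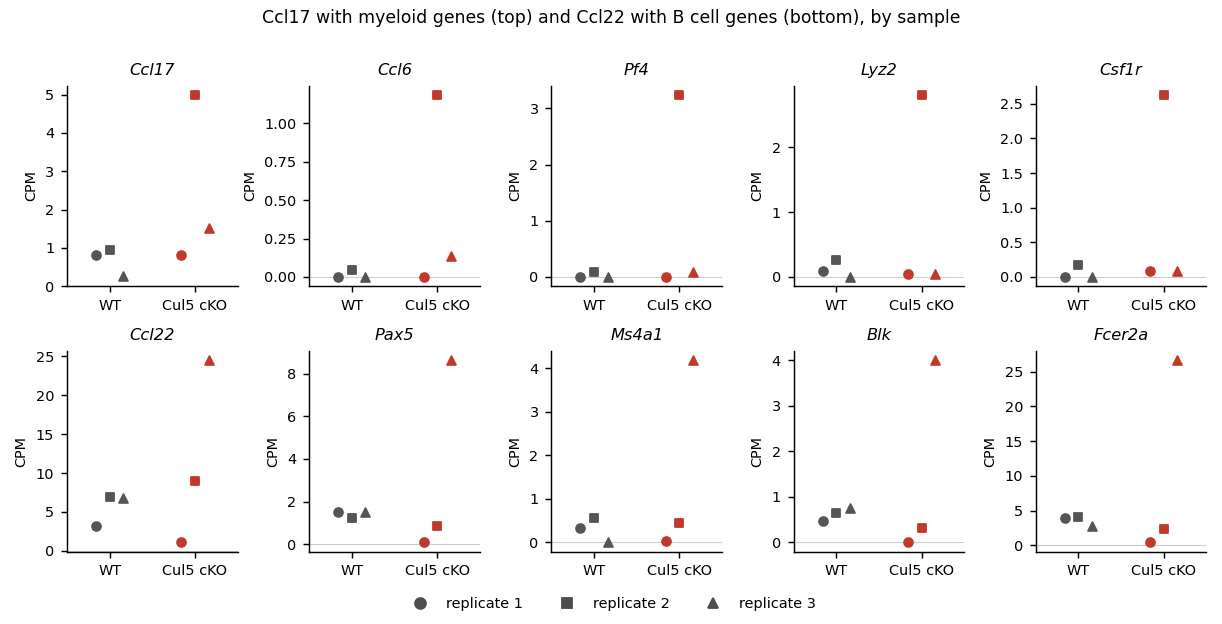
Levels in CPM (vertical axes, each with its own scale) of Ccl17 with 4 myeloid or platelet genes in the top row and of Ccl22 with 4 B cell genes in the bottom row, for 3 WT (grey) and 3 Cul5 cKO (red) samples with symbols for the replicate number. Cul5 cKO replicate 2 was the highest sample in every top panel, and Cul5 cKO replicate 3 in every bottom panel. The genes beside Ccl17 and Ccl22 were picked after their values were seen, so this pattern follows from the choice. Among listed markers not plotted, Itgam was highest in WT replicate 2, Zbtb46 in Cul5 cKO replicate 3 and Ighm in WT replicate 1. In TPM, Pax5 was highest in WT replicate 3.

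Ccl20, Ccl5 and Cxcl10 were close to the floor, and each had 3 of 6 samples at or below 3 counts. Ccl20 (ENSMUSG00000026166, chromosome 1, 83116766 to 83119167) was at 0.0854, 0.433 and 0 CPM in WT replicates 1, 2 and 3 and at 0.130, 0.789 and 0.667 CPM in Cul5 cKO replicates 1, 2 and 3. Its log2 fold change was 1.19 (SE 0.867 and adjusted p = 0.472, edgeR), from at most 18 counts in a sample. The exact Poisson interval of the 0 counts in WT replicate 3, the shallowest library, reached 0.933 CPM. This limit lay above the values of all Cul5 cKO samples, so a difference of this size was not detectable in that sample.

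Ccl5 (ENSMUSG00000035042, chromosome 11, 83525778 to 83530518), a late gene of effector T cells, was at 0.342, 0.346 and 0 CPM in WT replicates 1, 2 and 3. It was at 0.0434, 0 and 0.178 CPM in Cul5 cKO replicates 1, 2 and 3, from 0 to 8 counts. Cxcl10 (ENSMUSG00000034855, chromosome 5, 92346638 to 92348889) was at 0.213, 0.173 and 0 CPM in WT and at 0.0869, 0.351 and 0 CPM in Cul5 cKO replicates 1, 2 and 3, also from 0 to 8 counts. Both failed the expression filter, and the groups overlapped in both. With no filter beyond 1 count in total their log2 fold changes were -1.85 and -0.16 (adjusted p = 0.464 and 0.953, edgeR). The Cxcl10 window was the only ligand promoter of the 7 with an interferon response element, a pair of GAAA separated by any 2 bases, which 2.98% of all windows held.

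By their CPM in replicates 2 and 3, Ccl3, Ccl17, Ccl20 and Ccl22 were higher in both Cul5 cKO samples than in both WT samples, Xcl1 was lower, and 4 genes overlapped. For Ccl20 this order is uncertain, since the 0 counts in WT replicate 3 allow a level above the 0.667 CPM of Cul5 cKO replicate 3. For Xcl1 the order depended on the measure. WT replicate 3 lay below Cul5 cKO replicate 3 in TPM (12.5 against 13.1) and in the deposited log2 CPM (1.73 against 1.82), so the genotypes overlapped there. Over all genes tested in these 4 samples, 31.7% were higher and 32.5% lower without overlap, and 8.83% were called by edgeR in either direction. Of the 7 ligand genes, 0 were called, and 3 (Ccl3, Ccl17 and Ccl22) had an unadjusted p under 0.05, as did 31.2% of all genes. With 2 samples against 2 an exact permutation test cannot go below 0.333. The log2 fold changes of Ccl17 and Ccl22 in these samples were 2.08 (95% limits 0.32 and 3.84, adjusted p = 0.116, edgeR) and 1.27 (0.12 and 2.42, adjusted p = 0.132, edgeR). Both still included the samples with the highest myeloid and B cell marker sums.

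**Figure D4:**
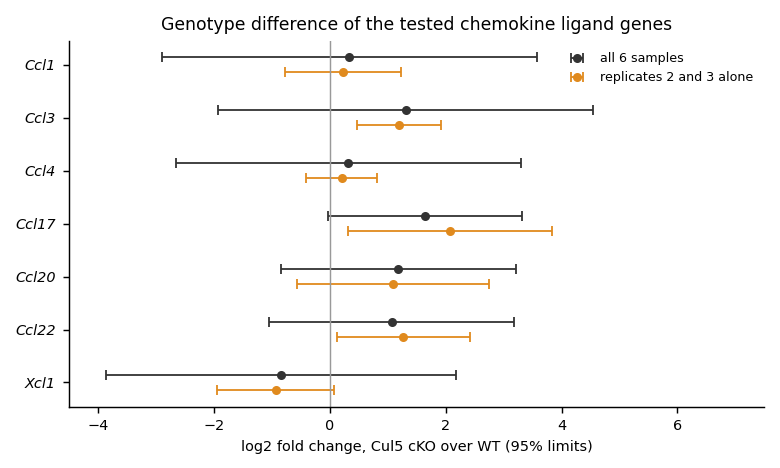
Log2 fold change of Cul5 cKO over WT (horizontal axis) with 95% limits for the 7 tested ligand genes, from all 6 samples (black) and from replicates 2 and 3 alone (orange). All black intervals include 0, and leaving out replicate 1 shortened the intervals of Ccl1, Ccl3, Ccl4 and Xcl1 most.

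Levels of different genes were compared in TPM, which takes transcript length into account, over replicates 2 and 3 of both genotypes. The order of mean levels was Ccl1 (19.8 ± 8.60 TPM, SD, n = 4), Ccl4 (17.2 ± 2.92), Xcl1 (14.3 ± 7.33), Ccl3 (8.66 ± 4.37), Ccl17 (8.49 ± 9.35), Ccl22 (7.90 ± 5.58), Ccl20 (1.06 ± 0.806), Ccl5 (0.533 ± 0.696) and Cxcl10 (0.277 ± 0.391). The genotypes ordered some genes differently. Xcl1 had the highest mean in WT (18.5 TPM) and the lowest of the first 6 in Cul5 cKO cells (10.04 TPM), while Ccl17 was the lowest of these 6 in WT (2.70 TPM) and the third in Cul5 cKO cells (14.3 TPM). Neighbours in the pooled order did not differ beyond their spread, except that all 4 Ccl22 values, from 4.43 to 16.2 TPM, lay above the highest Ccl20 value of 1.84 TPM. Ccl4 was the steadiest, from 15.1 to 21.4 TPM, and all 4 of its values lay above all those of Ccl3, from 4.23 to 14.05 TPM. The 9 genes together made up 84.9 and 47.2 TPM in WT replicates 2 and 3 and 95.4 and 85.3 TPM in Cul5 cKO replicates 2 and 3. In replicate 1 they made up 8.68 TPM in WT and 6.06 TPM in Cul5 cKO cells. For scale, Il9, the cytokine that defines Th9 cells, ranged from 1098 to 4076 TPM.

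The receptors of the Th2-attracting ligands were far more abundant than the ligands. Ccr8, the receptor of Ccl1, ranged from 361 to 621 TPM over the 6 samples, and Ccr4, the receptor of Ccl17 and Ccl22, from 146 to 170 TPM. Ccr6, the receptor of Ccl20, ranged from 6.11 to 25.5 TPM. Cxcr3 was low (0.858 to 3.88 TPM), and Ccr1 and Xcr1 did not exceed 0.158 and 0.119 TPM.

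**Figure D5:**
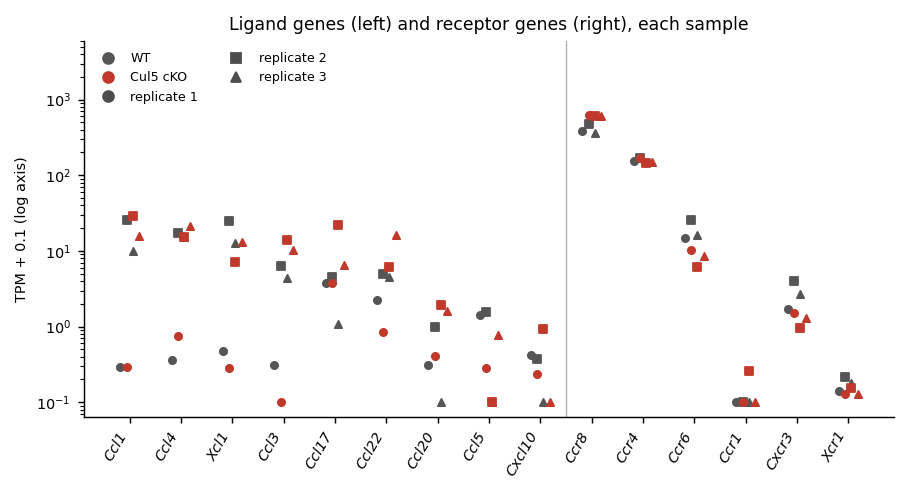
TPM + 0.1 (vertical, log axis) of the 9 ligand genes and of 6 receptor genes in each of the 3 WT (grey) and 3 Cul5 cKO (red) samples, with symbols for the replicate number. Ccr8 and Ccr4 lay above every ligand gene in every sample, and replicate 1 of Ccl1, Ccl4, Xcl1 and Ccl3 lay far below replicates 2 and 3.

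Of 23 chemokine receptor genes, 12 were tested, of which 1 rose and 1 fell with the loss of Cul5, and their median log2 fold change was -0.24. Over all genes tested 1.03% were called, and 27.5% did not overlap between genotypes. Before adjustment 5 of the 12 had p under 0.05 (edgeR), against 21.3% of all genes. Ccr8 rose in Cul5 cKO cells, from 276, 326 and 262 CPM in WT replicates 1, 2 and 3 up to 438, 428 and 446 CPM, without overlap (log2 fold change 0.60, SE 0.0866, adjusted p = 0.0298, edgeR). Ccr6 fell from 12.1, 16.3 and 14.2 CPM to 7.04, 4.82 and 6.62 CPM, also without overlap (log2 fold change -1.20, SE 0.190, adjusted p = 0.0390, edgeR). Both kept their direction in replicates 2 and 3 alone, at 0.57 and -1.43 (adjusted p = 0.0344 and 0.0197, edgeR), and both calls were lost when any sample other than WT replicate 1 was left out (adjusted p from 0.0537 to 0.168). With all samples, both were also lost with counts scaled from TPM (0.0667 for Ccr8 and 0.147 for Ccr6), with limma on the deposited table (0.0710 and 0.0786) and with limma on log2 TPM (0.112 or higher). Ccr4 differed by -0.03 (adjusted p = 0.864) and Cxcr3 by -1.20 (adjusted p = 0.147), both from edgeR. Cxcr3 did not overlap between genotypes, and in replicates 2 and 3 alone it was called lower (-1.66, adjusted p = 0.0443, edgeR), as was Ccr7, the lymph node homing receptor (-0.74, adjusted p = 0.0126), which brought the counts there to 1 higher and 3 lower. In those samples 8.83% of all genes were called. The differences of Ccl1 and Ccl20, the ligands of Ccr8 and Ccr6, did not pass the test in either direction.

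Of 32 other chemokine ligand genes, 22 had a count and 4 passed the filter. These were Ccl25, a ligand of gut-homing T cells, with a log2 fold change of -0.07, Ccl27a (-0.40), Ccl28 (0.32) and Cx3cl1 (-0.84), with adjusted p from 0.350 to 0.867 by edgeR. None was called, and 0 had an unadjusted p under 0.05 with edgeR or DESeq2, which gave an adjusted p for 1 of them. Ccl25 was the most abundant of them, from 4.81 to 7.17 CPM, and showed no shortfall in replicate 1.

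Genes known to respond to the signals of the culture were counted beside the ligand genes. Over all genes, edgeR called 1.03% with all samples and 8.83% in replicates 2 and 3 alone. The shares at an unadjusted p under 0.05 were 21.3% and 31.2%. Of 14 genes induced by T cell receptor signalling, 12 were tested. Lta, which encodes lymphotoxin α, was the 1 that rose (log2 fold change 1.28, adjusted p = 0.0164, edgeR), 0 fell, and the median was 0.05. Lta was called without WT replicate 1, Cul5 cKO replicate 1 or Cul5 cKO replicate 2 and was lost without any of the other 3 samples (adjusted p from 0.0839 to 0.0946). In replicates 2 and 3 alone all 14 were tested and 5 were called by edgeR. Tnf (0.84, adjusted p = 0.00682), Egr2 (0.70, 0.0404), Csf2 (2.91, 0.0429) and Lta (1.34, 0.0169) were higher, and Tnfrsf9, the receptor 4-1BB, was lower (-0.52, 0.0450). Csf2 had 6 and 0 counts in WT replicates 2 and 3, against 38 and 35 in Cul5 cKO replicates 2 and 3. It failed the filter over all samples and passed it here only through the Cul5 cKO samples, so its call is not independent of the filter. In 10 of the 12 genes tested over all samples both replicate 1 samples lay below the other 4, against 12.2% of all genes tested, and in 3 of them by at least 4-fold. Of 13 genes of the IL-4 and STAT6 response, all were tested and 1 rose, Il24, a cytokine of the IL-10 family, with a log2 fold change of 3.41 (adjusted p = 0.0105, edgeR, and from 0.0643 to 0.0776 with WT replicate 2 or 3 or Cul5 cKO replicate 3 left out). The median of this list was 0.14, 0 genes fell, and in 1 gene replicate 1 lay below the other samples. Before adjustment 7 of the 13 had p under 0.05 (edgeR), with Socs1, Il24 and Batf3 higher and Gata3, Cdh1, Ikzf1 and Epas1 lower. In replicates 2 and 3 alone 11 did. They were the same 7 in the same directions, with Cish, Xbp1 and Irf4 higher and Il4ra lower. Of these, 2 were called higher and 0 lower. The 2 were Il24 (4.01, adjusted p = 0.00196, edgeR) and Batf3 (1.335, adjusted p = 0.0304, edgeR). Of 14 interferon response genes, 11 were tested and 0 were called by edgeR, with 2 at an unadjusted p under 0.05 and 1 called lower by DESeq2, and the median was -0.05. In replicates 2 and 3 alone 12 were tested. There edgeR called 0 higher and 1 lower, Gbp2 (-1.29, adjusted p = 0.0375).

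Markers of CD8 T and NK cells, which also express Ccl3, Ccl4, Ccl5 and Xcl1, were low in all samples. The 10 markers had summed levels of 14.1, 25.7 and 24.04 CPM in WT replicates 1, 2 and 3, against 12.9, 24.3 and 28.1 CPM in Cul5 cKO replicates, with 8 or 9 detected, and the NK cell receptor gene Ncr1 was at 0 in every sample. Cd8a reached 6.27 CPM in Cul5 cKO replicate 3. The sum was lowest in the replicate 1 samples, as were Eomes, Nkg7, Cd8b1 and Prf1. In contrast, Cd8a, Klrd1, Klrk1 and Gzma were higher in WT replicate 1 than in WT replicates 2 and 3. The part of these cells in the ligand levels was not tested. Of the T cell markers 1 of 7 fell, Cd28, the co-stimulatory receptor engaged by the culture's antibody, with a log2 fold change of -1.17 (adjusted p = 0.0205, edgeR). This call held without WT replicate 1 or Cul5 cKO replicate 2 and was lost without any of the other samples (adjusted p from 0.0510 to 0.136), as well as in both limma fits of TPM (0.0552 and 0.0570). In replicates 2 and 3 alone 2 of the 7 markers were called lower, against 8.83% of all genes called in either direction. They were Cd28 (-1.27, adjusted p = 0.00798, edgeR) and Cd3e (-0.44, adjusted p = 0.0241, edgeR).

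The gene-level table deposited by the authors, in log2 CPM, listed 6 of the 9 ligand genes. Ccl1 was at -2.68, 2.63 and 1.36 in WT replicates 1, 2 and 3 and at -2.68, 2.85 and 2.04 in Cul5 cKO replicates 1, 2 and 3. Ccl17 was at 0.02, 0.22 and -1.50 in WT and at 0.02, 2.49 and 0.80 in Cul5 cKO replicates. Ccl22 was at 1.84, 2.94 and 2.85 in WT and at 0.36, 3.29 and 4.73 in Cul5 cKO replicates. Ccl5, Ccl20 and Cxcl10 were not listed there and were read from transcript counts alone. Over 26 values with at least 10 counts the table lay above the log2 CPM computed here by a median of 0.15, and by 0.01 to 0.32.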

How the data were processed

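Poly-A RNA of 3 WT and 3 Cul5 cKO Th9 cultures was sequenced in single reads of 50 bases. The authors assigned reads to GRCm38 transcripts with kallisto 0.46.2 and deposited, for each sample, estimated counts and TPM for 119414 transcripts. They also deposited a gene-level table of log2 CPM normalized with edgeR 3.34.0, whose columns of fold changes and p-values were not used. Here the estimated counts, of which 0.958% to 1.04% belonged to unmatched transcripts, were summed by gene (GENCODE vM21), rounded and tested in R 4.3.3 with edgeR 4.0.16 (filterByExpr, TMM, quasi-likelihood test, Benjamini-Hochberg over 12925 genes), without covariates. DESeq2 1.42.0 and limma 3.58.1 served as alternatives, beside other filters, inputs, a term for replicate 1, replicates 2 and 3 alone, a replicate block and samples left out in turn. The script was tested on simulated data. Permutation tests were exact and two-sided. No transcript of another gene matched a ligand transcript at 95% identity over 150 bases (blastn 2.17.0), so no ligand gene was set aside as uncertain.

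Named genes were Cul5, the 9 ligand genes, other ligand genes that passed the filter, receptors of the ligands (1 is not reported here), called genes of the lists or within 250 kb, and the 3 genes nearest in pattern to the 3 ligand genes with the widest range. Myeloid, platelet, B cell and early-response genes that stood out in a sample, and list genes called in replicates 2 and 3 alone, were added after their values were seen, as were the NFAT, EGR, AP-1 (TGANTCA) and TATA box (TATAAA) motifs among the 9 searched on both strands. Members and lists were chosen with earlier results of these data known. Promoter windows are RefSeq's (GRCm38.p6), which held 7 of the 9 ligand genes. Of these 7, 1 held the AP-1 motif (Cxcl10, against 6.75% of all windows), 0 held the TATA box (12.4%), and 0 held either of the NF-kappaB motifs searched (0.140% and 0.0852%).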

Additional observations from a re-analysis of the deposited data

How the results depend on the processing

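No chemokine ligand gene was called under any of the 19 alternative settings, and 115 of 121 log2 fold changes kept their sign. The 6 that turned all came from leaving out a sample. Without WT replicate 1, Ccl1 went to -0.32 and Ccl4 to -0.35. Without WT replicate 2, Xcl1 went to 0.43. Without Cul5 cKO replicate 2, Ccl1 went to -0.51, and without Cul5 cKO replicate 3, Ccl4 went to -0.37 and Ccl22 to -0.14. With each sample left out in turn, log2 fold changes ranged from -0.51 to 2.14 for Ccl1, from 0.62 to 2.65 for Ccl3, from -0.37 to 1.07 for Ccl4, from 0.61 to 2.06 for Ccl17, from 0.67 to 2.80 for Ccl20, from -0.14 to 1.62 for Ccl22 and from -1.78 to 0.43 for Xcl1. The lowest adjusted p over all settings was 0.0587 (Ccl3), and those of the other ligand genes were 0.116 or higher. DESeq2 gave no adjusted p for Ccl20, and the filter of 10 counts in every sample left 1 ligand gene.

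Samples with the same replicate number deviated together in 2 of 3 pairs (r = 0.370 and 0.206) and not in the third (0.0245), and WT replicate 3 correlated best with Cul5 cKO replicate 2 (0.0914), so the numbers were not treated as pairs. With the replicate block the log2 fold changes were 0.35 for Ccl1, 1.07 for Ccl3, 0.24 for Ccl4, 1.48 for Ccl17, 1.13 for Ccl20, 0.32 for Ccl22 and -0.99 for Xcl1, with 0 called.

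Over all genes, 79 were called higher and 54 lower. The counts were 361 and 332 with DESeq2, 72 and 77 with library size alone, 119 and 109 with no filter, 34 and 26 with counts scaled from TPM, 24 and 18 with limma on the deposited table, 15 and 12 on log2(TPM + 1), 15 and 15 on log2(TPM + 0.1), 622 and 637 with voom, 453 and 395 with the block, 927 and 761 with a term for replicate 1 (chosen after seeing the data) and 572 and 581 in replicates 2 and 3. Of the lists, DESeq2 called 1 receptor gene higher and 2 lower, 2 IL-4 and STAT6 response genes higher and 1 lower, and 3 T cell markers lower. Without 1 sample the counts over all genes ranged from 0 to 117 higher and from 1 to 199 lower, and at most 2 in either direction were called when WT replicate 2 or 3 or Cul5 cKO replicate 3 was left out. WT replicate 3, the shallowest library, set the depth limit for Ccl5, Ccl17, Ccl20 and Cxcl10.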
